A study of Homo sapiens with 8 samples.

Results

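The magnesium transporter genes examined here were MAGT1, SLC41A1, SLC41A2, SLC41A3, CNNM1, CNNM2, CNNM3, CNNM4, NIPA1 and NIPA2. They were chosen by symbol alone, as every probe whose deposited gene symbol was one of these names, which gave 16 probes of 10 genes among 47322 probes and 31426 symbols on the array. Total RNA came from 2 human neuroblastoma cell lines, the neuroblastic SH-SY5Y and the epithelial-like SH-EP2, both derived from the SK-N-SH line. Each line had been stably transduced by lentivirus, selected with puromycin, and carried either a scrambled shRNA (control cells) or a TRPM7 shRNA, with 2 arrays in each of the 4 groups and 8 arrays in all. All 4 groups therefore carried a vector and had been selected. The methods state that each sample was made and run in duplicate but not whether the duplicates were separate cultures, so the p-values measure the spread between these arrays, which may be technical. The lines differed in 2 lists of marker genes. The median normalised log2 signal of 11 noradrenergic marker genes was 10.88 in SH-SY5Y control cells and 3.11 in SH-EP2 control cells, and that of 12 mesenchymal marker genes was 6.85 and 11.09. Of 22 mesenchymal probes, 14 passed an adjusted p under 0.05 in limma as higher in SH-EP2 control cells and 2 as lower. Of all probes, 26.2% passed in either direction. TWIST1 was higher in SH-SY5Y control cells (11.66 against 10.42), as was the leading probe of VIM (13.68 against 13.48). The noradrenergic marker TH was detected on no array.

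Magnesium is the most abundant divalent cation inside cells, where it is bound to ATP, RNA and many enzymes. TRPM7 is a channel fused to a kinase through which magnesium, calcium and zinc enter cells. The genes examined here encode other proteins of magnesium handling. MAGT1 is a subunit of the oligosaccharyltransferase that joins sugar chains to new proteins, and it has been linked to magnesium uptake in lymphocytes. The SLC41 proteins are carriers, of which SLC41A1 is described as a sodium-magnesium exchanger at the cell surface. The CNNM proteins are membrane proteins with cytosolic CBS domains, described as magnesium effluxers or as sensors of magnesium, and they are bound by the PTP4A phosphatases. NIPA1 and NIPA2 are membrane proteins of neighbouring genes of chromosome 15, and mutations of NIPA1 cause a hereditary spastic paraplegia. The comparisons addressed whether transcripts of these transporters differed when TRPM7 was targeted and between the 2 lines.

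The targeted gene could not serve as a check. The TRPM7 probe (ILMN_1667047) had a detection p-value above 0.05 on each of the 8 arrays, and its normalised log2 signal lay at 2.81 and 3.02 in SH-SY5Y control cells, 2.70 and 2.63 in SH-SY5Y TRPM7 shRNA cells, 2.47 and 2.80 in SH-EP2 control cells and 2.65 and 2.46 in SH-EP2 TRPM7 shRNA cells. The array thus gave no measure of how far TRPM7 RNA was lowered. The paper reports stable knockdown in both lines and measured TRPM7 RNA by quantitative RT-PCR, which is separate from these arrays. Of the 16 probes of transporter genes, 9 probes of 6 genes were detected on all 8 arrays, 5 on some arrays and 2 on none.

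The largest differences among these genes lay between the lines and not between shRNA and control. SLC41A2 was higher in SH-EP2 and CNNM1 was higher in SH-SY5Y. The RefSeq promoters of these 2 genes (GRCh38.p14) are shown because they are the members with the largest difference between the lines in each direction. CNNM1 starts on the plus strand of chromosome 10 (chr10:99329106-99329405) and SLC41A2, at its outermost start, on the minus strand of chromosome 12 (chr12:104958697-104958996). Each sequence runs 5′ to 3′ through the annotated start, and capitals mark every CANNTG, the E-box letters, which read the same on both strands.
CNNM1: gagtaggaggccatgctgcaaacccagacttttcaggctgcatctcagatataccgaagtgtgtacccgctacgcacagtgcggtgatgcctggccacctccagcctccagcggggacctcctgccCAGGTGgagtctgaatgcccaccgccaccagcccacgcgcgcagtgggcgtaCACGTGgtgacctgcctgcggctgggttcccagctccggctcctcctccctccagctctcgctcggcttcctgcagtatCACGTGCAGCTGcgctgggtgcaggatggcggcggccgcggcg
SLC41A2: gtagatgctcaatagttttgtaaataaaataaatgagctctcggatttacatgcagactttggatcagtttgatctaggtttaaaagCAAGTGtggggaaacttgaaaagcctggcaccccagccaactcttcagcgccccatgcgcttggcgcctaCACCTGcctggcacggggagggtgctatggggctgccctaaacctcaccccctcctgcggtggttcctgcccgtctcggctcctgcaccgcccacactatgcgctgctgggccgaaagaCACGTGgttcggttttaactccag
The CNNM1 window held 4 CANNTG and the SLC41A2 window 3, and 15.3% of the 35116 RefSeq windows of this length held 3 or more and 5.6% held 4 or more. One kind of E-box, CACGTG, occurred 2 times in the CNNM1 window and once in the SLC41A2 window, and in 7.3% of all windows. Another, CAGGTG or its reverse CACCTG, stood in both, and in 20.6% of all windows. The second RefSeq start of SLC41A2 (chr12:104958241-104958540) had 1 CANNTG. These letters overlap by construction, since CACGTG and CAGGTG are forms of CANNTG, and they are descriptions of the windows only.

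In control cells of the 2 lines, 9 of the 16 probes, from 7 of the 10 genes, differed at an adjusted p under 0.05 in limma, 4 probes higher in SH-EP2 and 5 higher in SH-SY5Y. Of all 47322 probes, 26.2% passed the same test, and among the 14577 probes detected on all 8 arrays 60.1% did. Of the 9 transporter probes detected on all 8 arrays, 7 passed. The 3 genes of the SLC41 family were higher in SH-EP2, whereas MAGT1, CNNM1, CNNM3 and NIPA1 were higher in SH-SY5Y. Over all 4 arrays of each line, shRNA and control together, 9 of the 16 probes did not overlap between the lines, where 29.4% of all probes, detected or not, did not.

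**Figure D1:**
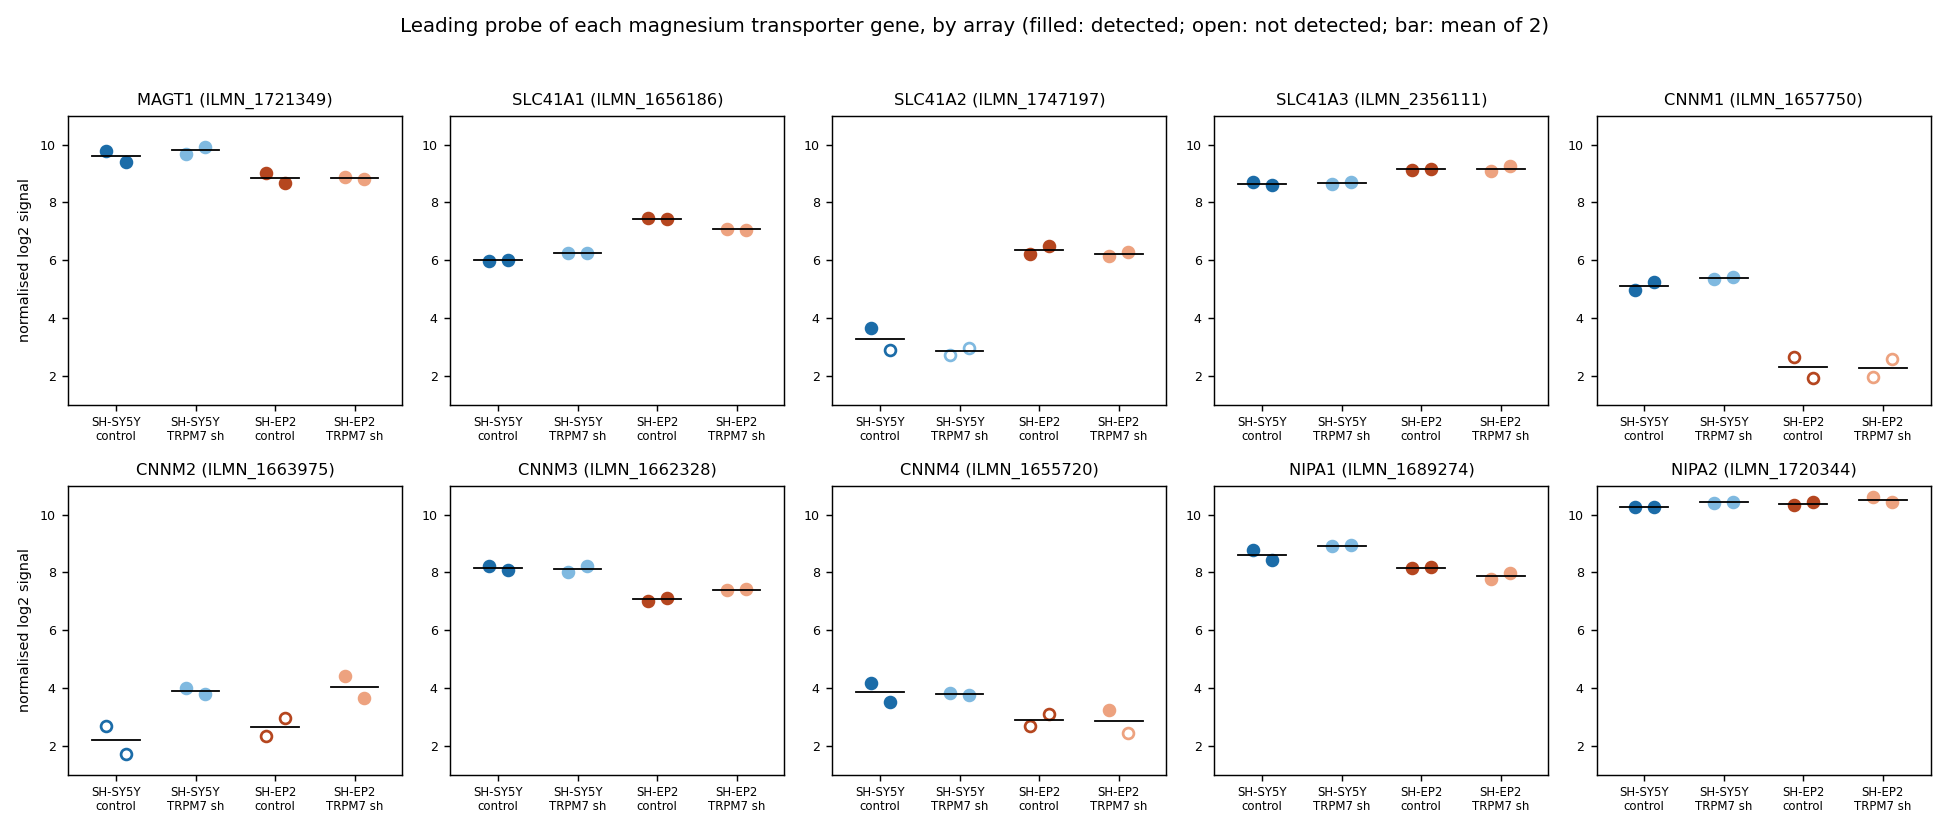
Normalised log2 signal (vertical axis) of the leading probe of each of the 10 genes on the 8 arrays, by group, where the leading probe is the one with the highest mean. Filled points were detected, open points were not, and bars are means of 2 arrays; the SLC41A2 points of SH-EP2 sit between 6.14 and 6.48 and those of SH-SY5Y between 2.71 and 3.66, and CNNM1 shows the reverse order.

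SLC41A2 (ILMN_1747197) encodes a magnesium carrier of the same family as SLC41A1. Its normalised log2 signal was 6.20 and 6.48 in SH-EP2 control cells, and 3.66 and 2.90 in SH-SY5Y control cells. Only 1 of the SH-SY5Y control arrays detected it. The log2 difference was 3.06 (SE 0.32, 95% interval 2.39 to 3.74, limma adjusted p = 1.94e-07), and no fold is given because an SH-SY5Y array did not detect the probe. In TRPM7 shRNA cells the probe lay at 6.14 and 6.27 in SH-EP2 and was detected on neither SH-SY5Y array. The size of this difference depended on how background was removed, and it was 0.69 on the log2 scale without background correction, where it still passed.

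SLC41A1 (ILMN_1656186), the exchanger of the family, was also higher in SH-EP2. Its log2 signal was 7.44 and 7.41 in SH-EP2 control cells and 5.96 and 6.01 in SH-SY5Y control cells. The arrays of a group lay close together and the groups far apart. They differed by 1.44 on the log2 scale (SE 0.16, limma adjusted p = 5.57e-07), or 2.72-fold. Without background correction it was 0.69 and still passed.

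SLC41A3, the mitochondrial member of the family, had 3 probes. The leading probe (ILMN_2356111) read 9.12 and 9.16 in SH-EP2 control cells against 8.70 and 8.58 in SH-SY5Y control cells, a log2 difference of 0.50 (SE 0.11, limma adjusted p = 0.00129). A further probe (ILMN_1739885) differed by 0.68 in the same direction (limma adjusted p = 8.54e-05). The third (ILMN_1808152) was detected on none of the 8 arrays.

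CNNM1 (ILMN_1657750) was detected on all 4 SH-SY5Y arrays and on none of the 4 SH-EP2 arrays. Its log2 signal was 4.96 and 5.26 in SH-SY5Y control cells and 2.65 and 1.91 in SH-EP2 control cells. The level in SH-SY5Y control cells was at least 3.68-fold higher on the background-corrected scale, taking for SH-EP2 on each array the lowest signal that was detected there (limma adjusted p = 2.43e-05). Without background correction the log2 difference was -0.43 and still passed. CNNM1 is the CNNM gene best known from brain.

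CNNM3 was higher in SH-SY5Y with both of its probes. ILMN_1662328 read 8.21 and 8.08 in SH-SY5Y control cells and 7.02 and 7.10 in SH-EP2 control cells, a log2 difference of -1.08 (SE 0.14, limma adjusted p = 2.25e-06) for SH-EP2 minus SH-SY5Y. The second probe, ILMN_3250893, differed by -0.68 (SE 0.22, limma adjusted p = 0.0242). Without background correction the probes differed by -0.68 and -0.19, and both still passed. In the main setting the call of ILMN_3250893 was lost without SH-EP2 control replicate 2 (-0.52), without SH-SY5Y control replicate 1 (-0.69) and without SH-SY5Y control replicate 2 (-0.67). CNNM4, whose gene neighbours CNNM3 on chromosome 2, was detected on all 4 SH-SY5Y arrays and on 1 of the 4 SH-EP2 arrays, close to background. Its log2 difference between the control cells was -0.95 (SE 0.48, limma adjusted p = 0.183), which did not pass. No probe of CNNM2 passed this test.

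MAGT1 (ILMN_1721349) read 9.77 and 9.40 in SH-SY5Y control cells and 9.01 and 8.67 in SH-EP2 control cells. The log2 difference was -0.74 (SE 0.13, limma adjusted p = 0.00016), so SH-EP2 had the lower level. The other subunits of the oligosaccharyltransferase did not share this direction. Of 10 such genes listed, 9 had a probe, and the leading probe passed an adjusted p under 0.05 as higher in SH-EP2 for 7 of them, by 0.53 to 0.83 on the log2 scale, and as lower for none, where 26.2% of all probes and 60.1% of those detected on all 8 arrays passed in either direction. Those that did not pass were RPN2 (0.19, limma adjusted p = 0.281) and TMEM258 (-0.04, adjusted p = 0.828), and a second probe of OSTC was lower in SH-EP2 (-0.90, adjusted p = 4.8e-06), against 0.67 for its leading probe. TUSC3, which takes the place of MAGT1 in part of these complexes, differed by -0.02 with its leading probe (adjusted p = 0.903).

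NIPA1 (ILMN_1689274) read 8.78 and 8.41 in SH-SY5Y control cells and 8.15 and 8.18 in SH-EP2 control cells. SH-EP2 minus SH-SY5Y was -0.43 (SE 0.13, limma adjusted p = 0.0176). It was lost without SH-EP2 control replicate 1 (-0.42), without SH-EP2 control replicate 2 (-0.44) and without SH-SY5Y control replicate 1 (-0.25). NIPA2, its neighbour, lay close in both lines. Its leading probe (ILMN_1720344) read 10.26 and 10.26 in SH-SY5Y control cells and 10.33 and 10.43 in SH-EP2 control cells, a difference of 0.12 (95% interval -0.07 to 0.30, limma adjusted p = 0.424).

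**Figure D2:**
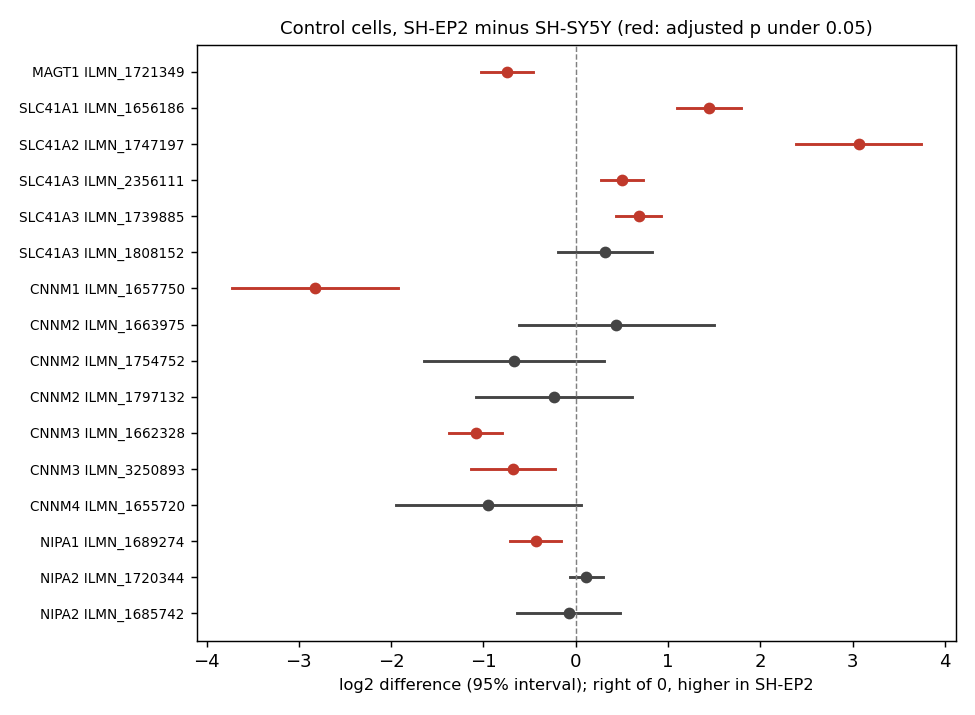
Log2 difference between control cells, SH-EP2 minus SH-SY5Y (horizontal axis), for the 16 probes, with unadjusted 95% intervals. Red points passed an adjusted p of 0.05: the SLC41 probes lie to the right of 0, up to 3.06 for SLC41A2, and MAGT1, CNNM1, CNNM3 and NIPA1 to the left, down to -2.82 for CNNM1.

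TRPM7 shRNA changed none of the 16 probes at an adjusted p under 0.05 in either line. In limma, 2.11% of all probes passed in SH-SY5Y and 3.02% in SH-EP2. At an unadjusted p under 0.05 there were 3 probes in SH-SY5Y, 2 higher and 1 lower, against 11.4% of all probes, and 6 in SH-EP2, 3 higher and 3 lower, against 12.6%. Among the 14577 probes detected on all 8 arrays these shares were 22.15% in SH-SY5Y and 25.45% in SH-EP2. Of the 9 transporter probes detected on all 8 arrays, 1 passed in SH-SY5Y and 4 in SH-EP2. The control and shRNA arrays did not overlap for 7 of 16 probes in SH-SY5Y, where 39.1% of all probes did not, and for 10 of 16 in SH-EP2, where 42.9% did not. The median absolute log2 difference of the 16 probes was 0.23 in SH-SY5Y and 0.28 in SH-EP2, and that of all probes was 0.24 in both. For the 9 transporter probes detected on all 8 arrays it was 0.16 in SH-SY5Y and 0.29 in SH-EP2. For all probes so detected it was 0.17 and 0.18. A count of 0 at this replication does not show equal levels, and the intervals below give the sizes that remained possible. Since the RNA was pooled from many cells, a change in all cells and a change in the share of some cells cannot be told apart.

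**Figure D3:**
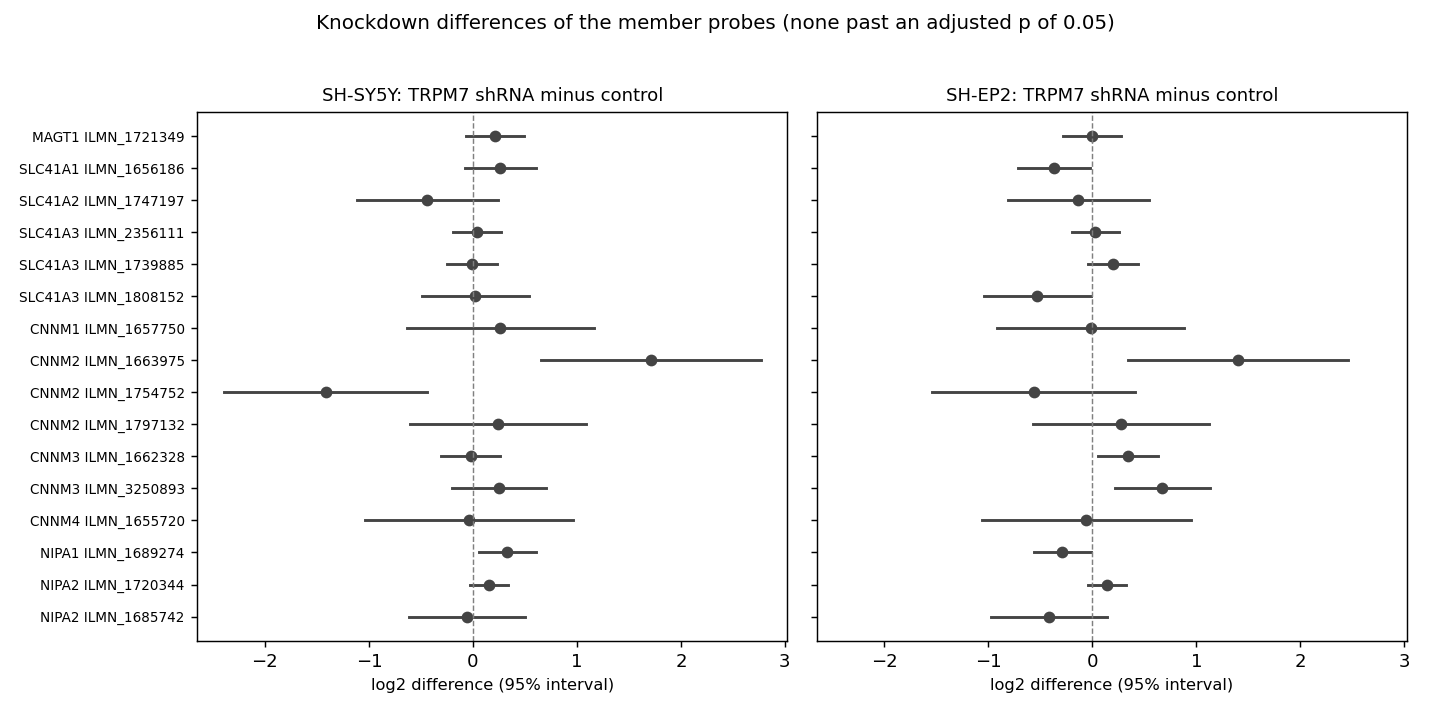
Log2 difference, TRPM7 shRNA minus control (horizontal axis), for the 16 probes in SH-SY5Y (left) and SH-EP2 (right), with unadjusted 95% intervals. Of the CNNM2 probes, 2 have the points farthest from 0, at 1.71 and -1.41 in SH-SY5Y, and no probe passed an adjusted p of 0.05.

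The widest shifts were those of CNNM2, the CNNM gene mutated in a dominant form of low serum magnesium, and its 3 probes did not move together. The probe with the highest mean (ILMN_1663975) had deposited signals of 111.1 and 94.2 in SH-SY5Y control cells, and of 132.0 and 131.1 in SH-SY5Y TRPM7 shRNA cells. In SH-EP2 it had 113.8 and 116.4 in control cells, and 138.3 and 127.9 in TRPM7 shRNA cells. It was detected on all 4 shRNA arrays and on none of the 4 control arrays. In SH-SY5Y the log2 difference was 1.71 (SE 0.51, limma adjusted p = 0.104), and in SH-EP2 it was 1.40 (SE 0.51, limma adjusted p = 0.19).

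A second CNNM2 probe (ILMN_1754752) took the opposite direction. Its deposited signals were 122.1 and 114.1 in SH-SY5Y control cells, both detected, and 113.4 and 110.8 in SH-SY5Y TRPM7 shRNA cells, neither detected. The log2 difference was -1.41 (SE 0.47, limma adjusted p = 0.166). In SH-EP2 no array detected it. The remaining probe (ILMN_1797132) was detected on none of the 8 arrays, with signals from 99.1 to 117.4. The median signal over all probes of an array ran from 104.7 to 119.9, and the CNNM2 signals lay on both sides of it. Neither difference passed in any of 17 other ways of processing or leaving out arrays. The log2 difference of ILMN_1663975 ran there from 0.23 to 2.16 in SH-SY5Y and from 0.18 to 1.79 in SH-EP2, and that of ILMN_1754752 in SH-SY5Y from -1.54 to -0.19. The values nearest 0 were those without background correction, and no fold is given.

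**Figure D4:**
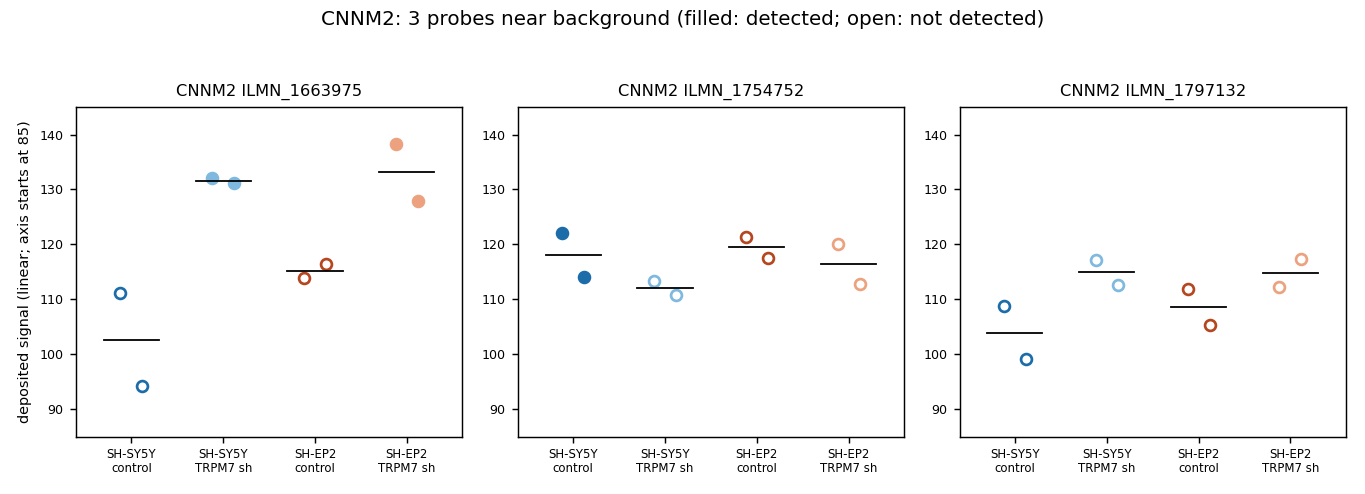
Deposited linear signal (vertical axis, which starts at 85) of the 3 CNNM2 probes on the 8 arrays by group, with filled points for detected arrays and bars for means of 2. ILMN_1663975 is detected on the 4 shRNA arrays, from 127.9 to 138.3, while ILMN_1754752 is detected only in SH-SY5Y control cells.

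CNNM3 had higher values in SH-EP2 TRPM7 shRNA cells with both probes. ILMN_3250893 read 5.34 and 5.04 in control cells and 5.91 and 5.82 in TRPM7 shRNA cells, a log2 difference of 0.67 (95% interval 0.22 to 1.13, limma adjusted p = 0.124). ILMN_1662328 read 7.02 and 7.10 in control cells and 7.38 and 7.43 in TRPM7 shRNA cells, a difference of 0.34 (95% interval 0.06 to 0.63, adjusted p = 0.263). The arrays did not overlap for either. In SH-SY5Y the same probes differed by 0.25 and -0.02, and the difference between the lines did not pass for either (limma adjusted p = 0.708 and 0.552).

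NIPA1 and SLC41A1 went opposite ways in the 2 lines, without overlap between control and shRNA arrays in either. NIPA1 read 8.78 and 8.41 in SH-SY5Y control cells and 8.91 and 8.94 in SH-SY5Y TRPM7 shRNA cells, a log2 difference of 0.33 (95% interval 0.06 to 0.61). In SH-EP2 it read 8.15 and 8.18 in control cells and 7.78 and 7.97 in TRPM7 shRNA cells, a difference of -0.29 (95% interval -0.57 to -0.01). The difference between these effects was -0.62 (SE 0.19, limma adjusted p = 0.139).

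For SLC41A1 the log2 signal was 5.96 and 6.01 in SH-SY5Y control cells against 6.26 and 6.24 in SH-SY5Y TRPM7 shRNA cells, a difference of 0.26 (95% interval -0.08 to 0.61). In SH-EP2 it was 7.44 and 7.41 against 7.07 and 7.05, a difference of -0.37 (95% interval -0.71 to -0.02). The difference between these effects was -0.63 (SE 0.23, limma adjusted p = 0.286). No overlap in either line with opposite directions was thus found for 2 of the 16 probes, and for 7.23% of all probes. No overlap in either line with the same direction was found for 4 of the 16, and for 10.9% of all probes. Those 4 were CNNM2 ILMN_1663975 and ILMN_1754752, CNNM3 ILMN_3250893 and NIPA2 ILMN_1720344. None of the 16 probes passed the test of a difference between the lines, where 1.40% of all probes did, and 2 passed an unadjusted p under 0.05, where 10.3% did. These 2 were among the 9 transporter probes detected on all 8 arrays, and of all probes so detected 18.60% passed. The NIPA1 difference passed with a further background model (-0.51, limma adjusted p = 0.0454), with no background correction (-0.46, adjusted p = 0.0451) and without SH-SY5Y control replicate 1 (-0.81, adjusted p = 0.0333), so it lay near the threshold.

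For the remaining transporters the intervals show which changes were still possible. MAGT1 differed by 0.21 in SH-SY5Y (95% interval of the fold 0.96 to 1.41) and by 0.00 in SH-EP2 (0.83 to 1.21). The leading SLC41A3 probe differed by 0.04 in SH-SY5Y (fold interval 0.88 to 1.21) and by 0.03 in SH-EP2 (0.87 to 1.20). The leading NIPA2 probe differed by 0.16 (0.98 to 1.27) and by 0.14 (0.97 to 1.25). For these 3 probes the intervals of the main setting left out a change of 1.5-fold in either direction, and this is stated for that setting only. The intervals rest on the spread between these arrays, which may be technical, and are not adjusted for the number of probes. With single arrays left out, the MAGT1 difference in SH-SY5Y ran from 0.03 to 0.40. The second NIPA2 probe (ILMN_1685742), with a lower signal, differed by -0.06 in SH-SY5Y and by -0.42 in SH-EP2 (fold interval 0.51 to 1.10), and the second SLC41A3 probe by -0.01 and 0.20. CNNM1 in SH-SY5Y read 4.96 and 5.26 in control cells and 5.34 and 5.40 in TRPM7 shRNA cells, with an interval of 0.64- to 2.24-fold, and SLC41A2 in SH-EP2 differed by -0.13 with an interval of 0.57- to 1.46-fold. CNNM4 stayed close to background, and its intervals ran from 0.49- to 1.95-fold in SH-SY5Y and from 0.48- to 1.93-fold in SH-EP2. In SH-EP2 only 1 of the 4 arrays detected it, so the interval there does not bound a fold of the RNA.

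Further genes of magnesium handling were read in 3 lists. Among 11 other carriers and paralogues (18 probes), 2 probes of 1 gene passed in SH-SY5Y and 3 probes of 2 genes in SH-EP2. All were lower in TRPM7 shRNA cells, where 2.11% and 3.02% of all probes passed in either direction. They were among the 10 carrier probes detected on all 8 arrays, and of all probes so detected 5.63% and 7.79% passed. Among 13 genes that bind or accompany the transporters (26 probes), none passed in either line. Among 11 genes of renal magnesium handling (24 probes), also none passed. The median log2 difference of the leading probes was -0.13 in SH-SY5Y and -0.00 in SH-EP2 for the carriers, 0.06 and -0.10 for the partners, and -0.02 and 0.32 for the renal genes, where the median of all probes was 0.00 and 0.01. Only 9 of the 24 renal probes were detected on any array, and 6 on all 8, so these renal values rest largely on background signal. The median of those 6 was -0.15 in SH-SY5Y and 0.10 in SH-EP2.

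The carrier that fell in both lines was MMGT1, a small membrane protein named for magnesium transport that is also a subunit of the endoplasmic reticulum membrane protein complex. Its leading probe (ILMN_1776216) read 10.16 and 10.07 in SH-SY5Y control cells and 9.67 and 9.66 in SH-SY5Y TRPM7 shRNA cells. In SH-EP2 it read 9.93 and 9.63 in control cells and 9.11 and 9.18 in TRPM7 shRNA cells. The shRNA arrays lay below the control arrays in each line. The log2 difference was -0.45 in SH-SY5Y (limma adjusted p = 0.0255) and -0.64 in SH-EP2 (adjusted p = 0.000958), and the effects did not differ at an adjusted p under 0.05 between the lines (-0.19, adjusted p = 0.728).

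A second MMGT1 probe (ILMN_3237986) fell by 0.54 in SH-SY5Y (limma adjusted p = 0.0352) and by 0.76 in SH-EP2 (adjusted p = 0.00163). The third (ILMN_1655892) was detected on 1 of the 8 arrays. In SH-SY5Y the calls of both probes were lost without any 1 of the 4 SH-SY5Y arrays, where the leading probe differed by -0.49 to -0.40 and the second by -0.58 to -0.50. Both were also lost in SH-SY5Y with median scaling (adjusted p = 0.3 and 0.289) and without the intensity trend (0.479 and 0.43), and the leading probe with the replicate block (0.0538). In SH-EP2 both were lost without the intensity trend (limma adjusted p = 0.273 and 0.222). In SH-EP2 the leading probe passed without any 1 array, and the second did not without SH-EP2 control replicate 2 (-0.64, adjusted p = 0.0626) or SH-EP2 TRPM7 shRNA replicate 1 (-0.61, adjusted p = 0.0632).

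TUSC3, the paralogue of MAGT1, gave unlike readings with its 2 probes. The leading probe (ILMN_2354547) read 10.09 and 10.09 in SH-EP2 control cells and 10.09 and 10.08 in SH-EP2 TRPM7 shRNA cells, a log2 difference of -0.00 (limma adjusted p = 0.994). The second (ILMN_1774689) read 5.64 and 5.45 in SH-EP2 control cells and 4.69 and 4.08 in SH-EP2 TRPM7 shRNA cells, and fell by 1.16 (adjusted p = 0.0229). In SH-SY5Y they differed by 0.30 (adjusted p = 0.0898) and by 0.57 (adjusted p = 0.458). The fall of the second probe was lost without SH-EP2 control replicate 1 (-1.07), SH-EP2 control replicate 2 (-1.25) or SH-EP2 TRPM7 shRNA replicate 2 (-0.86). It was also lost without background correction (-0.25), with 2 other background models (-0.69 and -0.36), with median scaling (-1.11) and without the intensity trend (-1.16), in 8 of 17 alternatives in all.

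**Figure D5:**
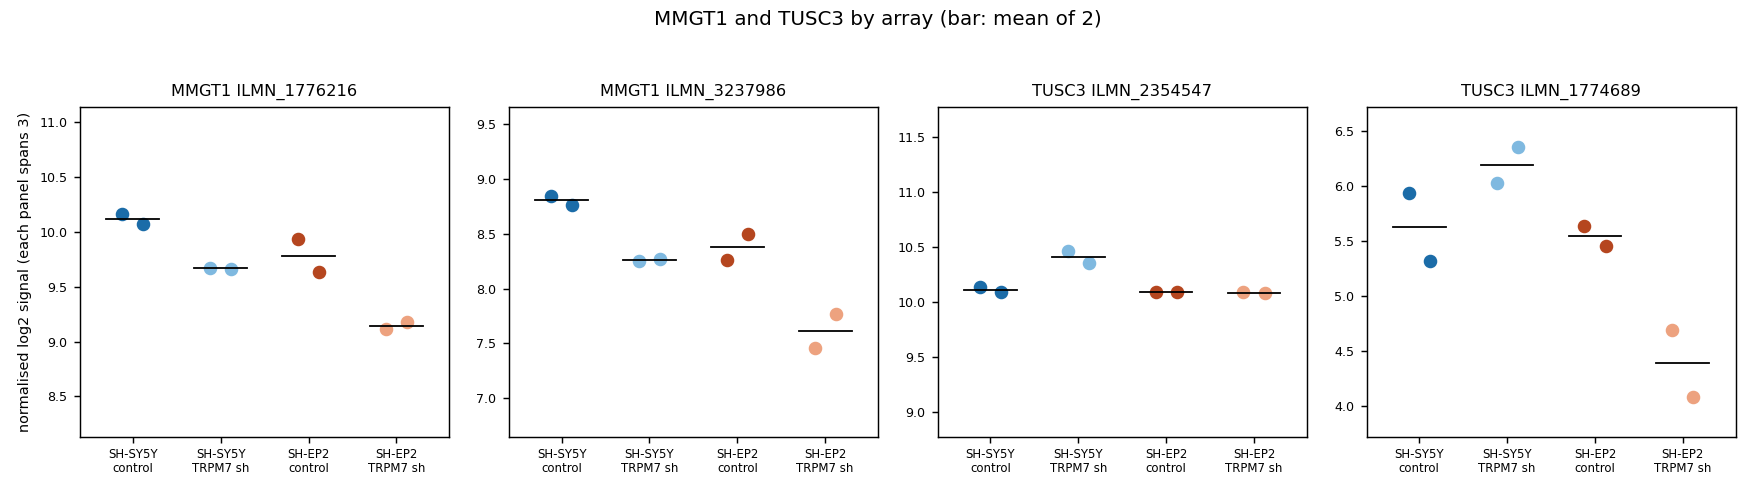
Normalised log2 signal (vertical axis, spanning 3 in each panel) of the 2 MMGT1 and 2 TUSC3 probes detected on all 8 arrays, by group, with bars for means of 2 arrays. Both MMGT1 probes lie lower in TRPM7 shRNA cells of each line, whereas only the second TUSC3 probe is lower in SH-EP2 TRPM7 shRNA cells.

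MRS2, the channel that carries magnesium into mitochondria, differed by 0.15 in SH-SY5Y and by 0.18 in SH-EP2 (limma adjusted p = 0.846 and 0.786). The PTP4A phosphatases, which bind the CNNM proteins, did not pass with any of their probes. The leading PTP4A1 probe differed by -0.52 in SH-SY5Y (adjusted p = 0.122) and by 0.16 in SH-EP2 (adjusted p = 0.789). The leading PTP4A2 probe differed by 0.07 in both lines (adjusted p = 0.794 and 0.785). For PTP4A3 it differed by -0.65 in SH-SY5Y (adjusted p = 0.579) and by 0.19 in SH-EP2 (adjusted p = 0.92). In SH-SY5Y a second PTP4A1 probe (ILMN_2154654) differed by -0.78 (limma adjusted p = 0.12). A second PTP4A3 probe (ILMN_2359710) differed there by -1.21 (adjusted p = 0.151). The second PTP4A2 probe (ILMN_1688490) went the other way, by 0.35 (adjusted p = 0.552), and the remaining probes went in both directions.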

How the data were processed

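Biotinylated cRNA prepared from total RNA was hybridised to Illumina HT-12 v4 bead arrays. The authors deposited non-normalised bead intensity per probe with a detection p-value, made in GenomeStudio 2011.1 per the labels. The 8 arrays detected 40.8% to 44.2% of probes at a detection p-value under 0.05, and their number limits the precision. Samples were grouped by cell line and shRNA from their titles. From the deposited intensity, background was removed with the RMA model, the 8 arrays were quantile normalised, log2 was taken, and every probe was fitted in limma 3.58.1 (R 4.3.3; one mean per group, intensity trend, Benjamini-Hochberg over all 47322 probes). The methods of the study name RMA but no test. A group that detected a probe on no array was given the lowest detected signal of its arrays, and the fold is then stated as "at least". On simulated arrays the fitted changes were close to those put in, but a part of the 2-fold changes was missed, and the criterion for recovery was lowered after a stricter one had failed. False calls ran somewhat above the nominal share, so calls close to the threshold are the least certain. Probes of the transporters were described each by itself, the leading probe being that with the highest mean; of related genes, those past the threshold under the shRNA were named, with TUSC3, MRS2 and the PTP4A genes in any case. RPN2, TMEM258, OSTC and EGFR were added after their values were seen. The genes and lists were chosen with earlier results of these data known. Alternatives covered background, scaling, probe filter, variance model, separate lines, gene means, pairing and single arrays. Promoters came from RefSeq (GRCh38.p14), which held all 10 genes; OST4 had no probe.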

Additional observations from a re-analysis of the deposited data

Results flagged for a closer look

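The effect of the TRPM7 shRNA differed between the lines for 2 probes of the related genes. The second TUSC3 probe (ILMN_1774689) had a log2 effect in SH-EP2 minus that in SH-SY5Y of -1.72 (limma adjusted p = 0.0278), with effects of -1.16 and 0.57. It was lost in 7 of 16 alternatives, with values there from -1.88 to -1.41. For EGFR (ILMN_1798975), the receptor of a growth factor that promotes renal magnesium uptake, the difference was 1.43 (adjusted p = 0.0301), from 0.63 in SH-EP2 and -0.79 in SH-SY5Y, neither of which passed by itself. The other EGFR probe detected on all 8 arrays (ILMN_1696521) did not share this direction, with a difference of -0.33 (adjusted p = 0.905), from -0.42 in SH-EP2 and -0.09 in SH-SY5Y. The call of ILMN_1798975 was lost in 10 of 16 alternatives, with values there from 1.22 to 1.53. Groups of 2 arrays were too small to single out any array.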

How the results depend on the processing

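The count of 0 transporter probes under the shRNA was found in each line under all 17 alternatives, and 0 genes passed with probes of a gene averaged. The test of a difference between the lines gave 0 probes in the main setting and 1, NIPA1, with normexp background, 1 with no background correction, and 0 to 1 when single arrays were left out. Between control cells 9 probes passed, 7 to 9 when single arrays were left out, and 6 without the intensity trend (MAGT1, SLC41A3 ILMN_2356111 and NIPA1 were lost); 7 genes passed with probes averaged. The variance model had the widest effect over all probes, with 64 calls instead of 999 in SH-SY5Y and 100 instead of 1429 in SH-EP2 without the trend, and no MMGT1 or TUSC3 call. Fitted alone, SH-EP2 gave 2587 calls. Leaving out single arrays gave 622 to 958 calls in SH-SY5Y, 675 to 1596 in SH-EP2 and 399 to 650 for the difference between the lines, against 662 in the main setting, 1153 with normexp and 1248 with no background correction. With median scaling MMGT1 differed by -0.31 and -0.39 in SH-SY5Y (limma adjusted p = 0.3 and 0.289).

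By the labels, replicates of different groups shared only a number. The replicate differences of control and shRNA cells correlated at -0.111 in SH-SY5Y and -0.004 in SH-EP2. This does not show whether arrays of the same number shared a culture or a batch. With the replicate block, 0 transporter probes passed under the shRNA in either line and 9 between control cells, with 801 and 1136 calls over all probes, and the leading MMGT1 probe in SH-SY5Y was -0.45 (adjusted p = 0.0538). A block with SH-SY5Y numbers crossed, chosen after seeing the data, gave 1420 calls in SH-SY5Y and 1873 in SH-EP2. Signals near background, those of CNNM2, CNNM4 and TRPM7, limit what could be detected.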
